A study of Homo sapiens with 6 samples.

Results

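Tubulin-modifying enzymes and tubulin folding cofactors were examined as a set of 31 genes, taken by gene symbol: the tubulin tyrosine ligase TTL and its relatives, the cytosolic carboxypeptidases that remove glutamate, the vasohibins with their binding protein, the enzymes that add and remove tubulin acetylation, and the cofactors that assemble the tubulin dimer. The 31 symbols matched 32 of the 58735 rows of the gene count table, because TBCE has 2 Ensembl identifiers. Of these 32 rows, 26 passed the filter on low counts and were among the 15054 genes tested. The libraries came from bulk RNA sequencing of human prostate cancer cells, with 3 biological replicates of each of 2 cell lines. C4-2B is the parental line, an established model of castration-resistant prostate cancer (CRPC) derived from LNCaP. RC4-2B is its cabazitaxel (CBZ)-resistant subclone, made over 4 months by repeated 72 h exposures to CBZ with recovery between them, at concentrations that started at 0.1 nM and ended at 20 nM. CBZ is a taxane that binds beta-tubulin and stabilises microtubules. Per the labels, both lines were grown in RPMI-1640 with 10% FBS, whereas the study's methods name both CSS and fetal bovine serum for the cultures taken for RNA, and they name no CBZ there. A single resistant subclone was compared with a single parental line, so a difference linked to resistance and a difference between clones cannot be told apart.

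Microtubules are polymers of alpha- and beta-tubulin that carry enzymatic marks, mostly on the C-terminal tails exposed on the polymer surface. A vasohibin bound to SVBP removes the last tyrosine of alpha-tubulin and TTL puts it back. Glutamylases and glycylases of the tyrosine ligase-like (TTLL) family add side chains of glutamate or glycine, and carboxypeptidases shorten the glutamate chains. ATAT1 acetylates a lysine of alpha-tubulin inside the microtubule, and HDAC6 and SIRT2 remove that mark. Before any of this, newly made tubulin leaves the chaperonin and passes through the cofactors TBCA to TBCE, which with the small GTPase ARL2 join alpha- and beta-tubulin into a dimer. The detyrosinated and acetylated forms are typical of long-lived microtubules, the state that taxanes also favour.

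The libraries held between 15707134 and 18052517 gene counts, so that 3 counts, the limit used here for detection, corresponded to 0.170 to 0.188 CPM, the gene count scaled to the TMM-adjusted size of its library. The limit covers counting error only. All 6 libraries expressed 5 luminal prostate markers (FOLH1, TMPRSS2, SLC45A3, KRT8 and KRT18) at 65.9 to 917 CPM, and PTPRC, CD3E, CDH5, PECAM1 and DCN, which mark leukocytes, endothelium and fibroblasts, stayed at 3 counts or fewer. COL1A1, also a fibroblast marker, was at 21.2 to 36.6 CPM in both lines. RC4-2B replicate 2 stood apart from its group. Over 11189 well expressed genes, the SD of its log2 CPM difference was 0.628 from replicate 1 and 0.551 from replicate 3, against 0.244 between replicates 1 and 3 and 0.166 to 0.220 among the C4-2B libraries. Its differences from replicate 1 fell with the GC content of the transcripts (Spearman rho = -0.746 across genes, which are not independent replicates). Because RC4-2B replicate 2 stood apart, the main results are given with and without it. Where a value is given only once, it is from all 6 libraries. In bulk RNA, fewer cells expressing a gene and less of its RNA per cell cannot be told apart.

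TTLL7, TTLL6 and SIRT2 showed the largest fitted differences of the set, and the RefSeq promoter windows of these 3 genes (GRCh38.p14, 250 bases before to 50 after the annotated start, written 5′ to 3′ on the gene's strand) are shown for context. RefSeq gives TTLL6 a second start further into the gene, and that window (chr17:48794285-48794584) is described but not printed. All 3 genes lie on the minus strand: TTLL7 at chr1:83999083-83999382, TTLL6 at chr17:48817180-48817479 and SIRT2 at chr19:38899569-38899868. Capitals mark motifs found on either strand among CCAAT, the GC box GGGCGG, the TATA box TATAAA and the E-box CACGTG, none of which overlapped another in these windows.
TTLL7: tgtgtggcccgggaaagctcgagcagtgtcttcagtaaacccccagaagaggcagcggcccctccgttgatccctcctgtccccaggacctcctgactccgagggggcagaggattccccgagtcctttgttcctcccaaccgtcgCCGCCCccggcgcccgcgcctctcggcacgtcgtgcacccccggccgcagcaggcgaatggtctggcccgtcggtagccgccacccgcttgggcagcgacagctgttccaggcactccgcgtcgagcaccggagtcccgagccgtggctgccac
TTLL6: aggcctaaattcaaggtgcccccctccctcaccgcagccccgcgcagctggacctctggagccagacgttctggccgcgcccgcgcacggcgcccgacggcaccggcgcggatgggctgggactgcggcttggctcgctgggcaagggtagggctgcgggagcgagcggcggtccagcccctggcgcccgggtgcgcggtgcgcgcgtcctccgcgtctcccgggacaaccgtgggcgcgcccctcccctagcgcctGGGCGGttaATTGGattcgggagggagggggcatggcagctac
SIRT2: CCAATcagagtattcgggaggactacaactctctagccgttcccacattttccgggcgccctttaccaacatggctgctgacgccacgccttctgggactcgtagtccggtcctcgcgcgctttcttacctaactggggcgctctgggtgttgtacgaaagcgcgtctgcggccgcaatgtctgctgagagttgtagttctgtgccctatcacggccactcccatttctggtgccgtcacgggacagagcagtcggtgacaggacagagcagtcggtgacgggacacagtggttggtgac
The TTLL7 window held 1 GC box, read here on the opposite strand, and none of the other motifs. The TTLL6 window shown held 1 GC box and, on the opposite strand, 1 CCAAT, while the window at the inner start held none of the 4 motifs, and the SIRT2 window held 1 CCAAT at its first base. A CCAAT was present in 34.6% of all 34943 RefSeq promoter windows, a GC box in 44.9%, a TATA box in 11.6% and an E-box in 7.23%. The windows of TTLL7 (69.7% GC, 30 CpG) and TTLL6 (74.3% GC, 37 CpG) were richer in CpG than the median window (58.7% GC, 14 CpG), and that of SIRT2 (58.7% GC, 23 CpG) had the median GC content. The inner TTLL6 window was poorer than the median on both measures (52.7% GC, 6 CpG).

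Across the set, 1 gene passed the test and 25 of the 26 tested rows did not. TTLL7, a glutamylase that acts mainly on beta-tubulin, was the 1 member called higher in RC4-2B, and no member was called lower (edgeR's quasi-likelihood test, adjusted p under 0.05). Over all genes tested, 1.08% were called higher and 0.903% lower. At an unadjusted p under 0.05, 2 members were higher (TTLL7 and TTLL6, against 12.0% of all genes) and 2 were lower (SIRT2 and TBCB, against 9.42%). The 3 RC4-2B values lay above all 3 C4-2B values for 5 members (TTLL6, TTLL7, AGTPBP1, VASH2 and TBCEL), which 17.0% of all genes did, and below them for 4 (TTLL1, SIRT2, TBCB and TBCC), which 17.1% did. The fitted log2 fold changes, RC4-2B relative to C4-2B throughout, ran from -0.74 to 0.93 with a median of -0.04, against a median of 0.01 over all genes. Of the 26, 12 were positive and 14 negative. When RC4-2B replicate 2 was left out, TTLL7 was called higher and SIRT2 and TBCB were called lower, while 6.50% of 15378 genes were called higher and 6.02% lower. The members' median standard error (SE) of the log2 fold change was 0.17 with all libraries and 0.11 without that library.

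**Figure D1:**
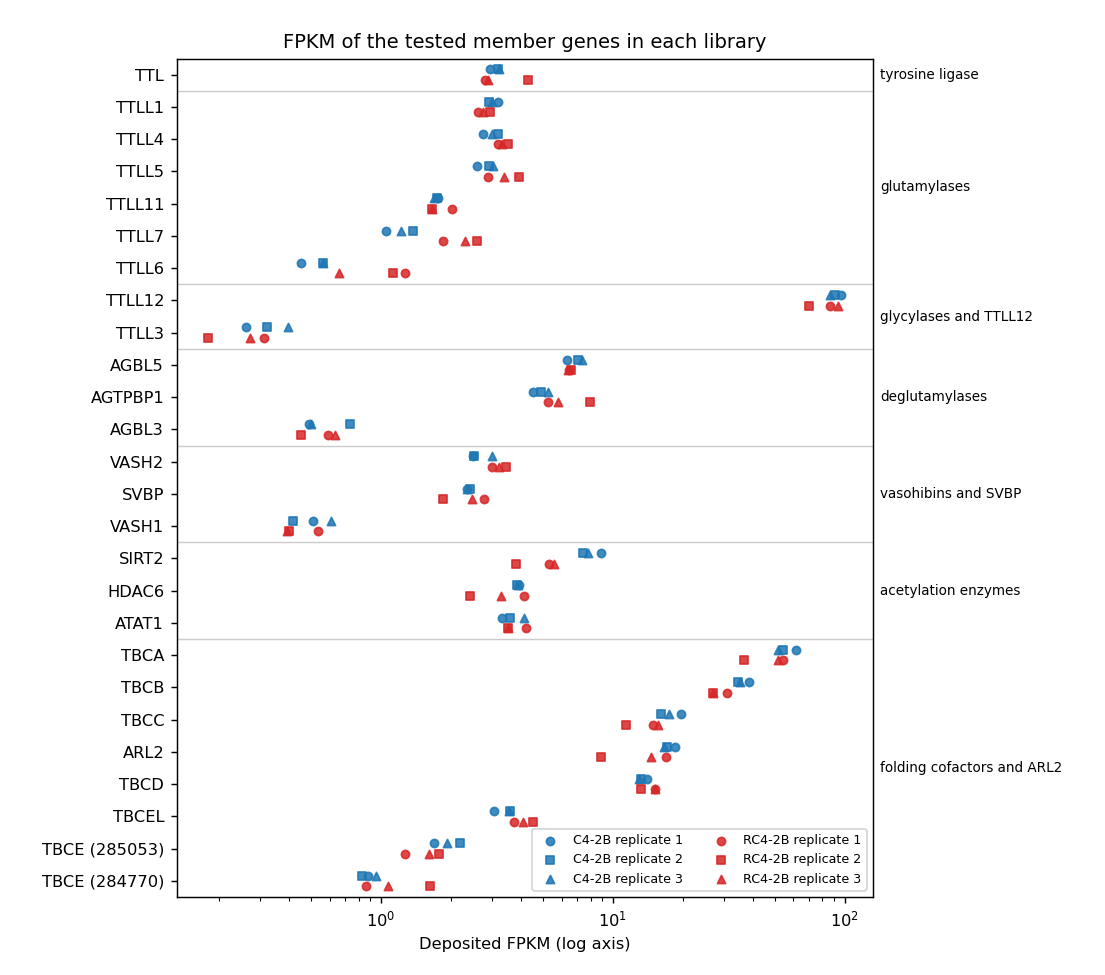
FPKM (fragments per kilobase of transcript scaled to library size, log axis) of the 26 tested rows in each of the 6 libraries, grouped by role. TTLL12 and the cofactors TBCA and TBCB have the highest levels, and the blue C4-2B and red RC4-2B points are clearly separated for TTLL7 and SIRT2. Numbers after TBCE are the last digits of its 2 Ensembl identifiers.

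Per unit of transcript length, levels differed widely within the set. TTLL12 had the highest mean level, 91.3 FPKM in C4-2B against 83.1 FPKM in RC4-2B. The cofactors TBCA (55.9 and 47.4 FPKM) and TBCB (36.1 and 28.3 FPKM) came next, followed by TBCC, ARL2 and TBCD at 13.4 to 17.7 FPKM in either line. The modifying enzymes other than TTLL12 all had means under 10 FPKM, with SIRT2 (8.03 FPKM) and AGBL5 (6.92 FPKM) at the top in C4-2B and AGBL5 (6.49 FPKM) and AGTPBP1 (6.32 FPKM) in RC4-2B, and the lowest tested gene was TTLL3 (0.327 and 0.255 FPKM). Of the 6 rows not tested, TTLL2, TTLL10, AGBL1 and AGBL2 had at most 1 count in any library, with AGBL1 at 0 in all 6. TTLL9 had 1 to 9 counts and AGBL4 0 to 4. TTLL9 and TTLL2 are glutamylases, and AGBL1, AGBL2 and AGBL4 are carboxypeptidases of the deglutamylase family. TTLL10 was grouped here with the glycylases by family, and whether the human protein has that activity was not examined. Several of these genes are best known from ciliated or neuronal cells. None was detectable here above a few counts, and no difference between the lines could be shown for them at this depth.

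TTL, the only known enzyme that restores the terminal tyrosine of alpha-tubulin, did not differ beyond its replicate spread. It measured 51.8, 56.3 and 56.1 CPM in C4-2B against 49.3, 72.5 and 50.3 CPM in RC4-2B. The groups overlapped, and the high RC4-2B value was that of replicate 2. The log2 fold change was 0.07 (95% interval -0.31 to 0.44, adjusted p = 0.82), and -0.14 (-0.33 to 0.05) without that library.

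Among the glutamylases, 6 of the 8 genes were tested. The only call was for TTLL7 (chromosome 1, 83865028 to 83999150, minus strand). It had 12.4, 16.2 and 14.2 CPM in C4-2B against 21.8, 29.3 and 26.9 CPM in RC4-2B. Every RC4-2B value exceeded every C4-2B value. The means were 14.3 ± 1.92 and 26.0 ± 3.82 CPM (SD, n = 3), a rise of 1.82-fold (log2 fold change 0.87, SE 0.17, 95% interval 0.48 to 1.25, edgeR adjusted p = 0.042). Without RC4-2B replicate 2 it was 0.77 (adjusted p = 0.0022), and with DESeq2, the tool the study used, it was 0.86 (adjusted p = 0.0012). A correction for transcript GC content gave a smaller value, 0.66 (adjusted p = 0.012). With that correction and without RC4-2B replicate 2 it was 0.70 (adjusted p = 0.0011). TTLL7 did not pass with limma on log2 FPKM (adjusted p = 0.11, 0.12 and 0.22 in 3 settings) or with a replicate block (adjusted p = 0.052). The adjusted p was 0.24, 0.14 and 0.20 when C4-2B replicate 1, 2 or 3 was left out and 0.14 without RC4-2B replicate 3, with log2 fold changes between 0.77 and 0.98 over all 6 omissions.

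TTLL6, which elongates glutamate chains mainly on alpha-tubulin, was the other glutamylase whose RC4-2B values all lay above those of C4-2B. Its values were low, 2.57, 3.23 and 3.19 CPM in C4-2B against 7.25, 6.16 and 3.70 CPM in RC4-2B. RC4-2B replicate 3 was only slightly above the C4-2B range. The means of 2.99 ± 0.371 and 5.70 ± 1.82 CPM gave a log2 fold change of 0.93 (SE 0.28, interval 0.29 to 1.56) that did not pass the test (edgeR adjusted p = 0.13, or 0.0502 without RC4-2B replicate 2). TTLL6 passed in 2 of 13 alternatives. These were edgeR with no filter on low counts (adjusted p = 0.039) and with the GC correction without RC4-2B replicate 2 (0.83, adjusted p = 0.043). With the GC correction on all libraries it was 0.90 and did not pass (adjusted p = 0.059). TTLL6 lies on chromosome 17, whose 944 tested genes had a median log2 fold change of 0.15, or 0.24 after a correction for transcript GC content, and the part of this shift in the TTLL6 value was not tested.

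The remaining glutamylases did not pass the test. TTLL4 and TTLL5 start new glutamate chains. TTLL4, the most abundant glutamylase by mean FPKM over the 6 libraries, measured 23.7, 27.6 and 25.6 CPM in C4-2B against 27.5, 29.0 and 28.3 CPM in RC4-2B, with overlapping groups and a log2 fold change of 0.14 (interval -0.14 to 0.42). TTLL5 had a log2 fold change of 0.23 (-0.09 to 0.54). TTLL1 is the catalytic subunit of a multi-protein polyglutamylase. Its values of 5.72 to 6.26 CPM in C4-2B against 5.13 to 5.53 CPM in RC4-2B did not overlap, but the log2 fold change of -0.15 (-0.54 to 0.23) did not pass the test. TTLL11, a chain-elongating enzyme, differed by 0.02 (-0.38 to 0.42).

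**Figure D2:**
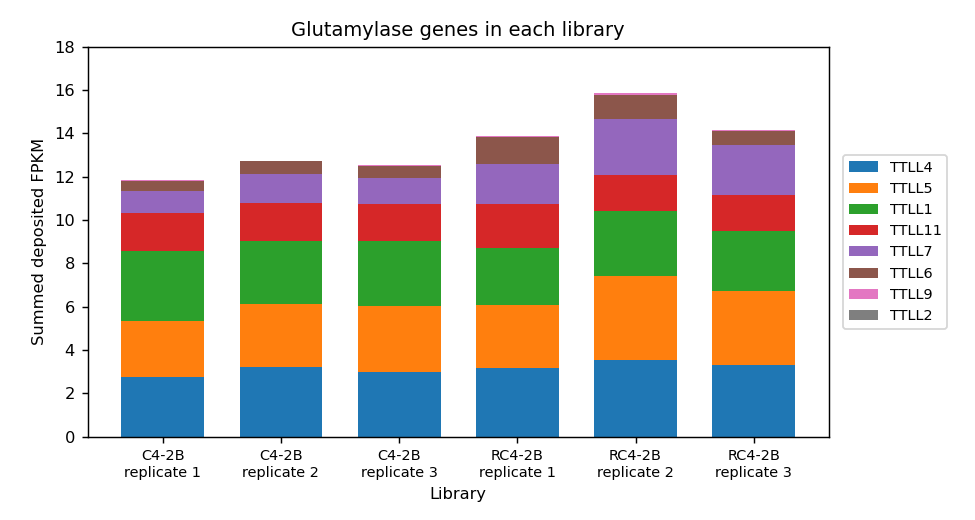
Summed FPKM of the 8 glutamylase genes in each library, with each colour showing the part of 1 gene. The bars of the RC4-2B libraries are taller, and the TTLL7 segment is larger in each of them than in any C4-2B library; TTLL9 and TTLL2 are too low to see.

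The make-up of the glutamylase transcripts was also set out by library. The 8 genes summed to 12.4 ± 0.468 FPKM in C4-2B against 14.6 ± 1.08 FPKM in RC4-2B. TTLL7 made up 9.77% ± 0.956 of that sum in C4-2B against 15.3% ± 1.74 in RC4-2B, and TTLL6 4.24% ± 0.383 and 6.98% ± 2.27. TTLL1 made up 24.6% ± 2.18 and 19.0% ± 0.464. These shares are descriptions of the same counts and were not tested separately.

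The glycylase group added no call. TTLL3 starts glycine chains, and TTLL12 is a divergent TTLL protein for which a ligase activity is not established. TTLL12 measured 499, 472 and 443 CPM in C4-2B against 447, 345 and 476 CPM in RC4-2B. The groups overlapped and the low value was again RC4-2B replicate 2. Its log2 fold change was -0.16 (interval -0.46 to 0.15) and -0.03 without that library. TTLL3, at 2.00 to 4.55 CPM, differed by -0.38 (-1.02 to 0.26), and by -0.17 without RC4-2B replicate 2.

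Among the deglutamylases, 3 of 6 genes were tested and none passed. AGBL5 removes the glutamate at the branch point of a side chain and was the most abundant, with 37.6, 41.8 and 42.9 CPM in C4-2B against 38.2, 37.3 and 37.4 CPM in RC4-2B. The RC4-2B values fell within or just under the C4-2B range, for a log2 fold change of -0.12 (interval -0.37 to 0.14). AGTPBP1 shortens long glutamate chains and is known for the Purkinje cell degeneration that its loss causes in mice. Its groups did not overlap (24.9 to 28.7 CPM in C4-2B, 29.0 to 41.9 CPM in RC4-2B), but they were nearly adjacent apart from the 41.9 CPM of RC4-2B replicate 2. The log2 fold change of 0.35 (-0.03 to 0.72, adjusted p = 0.26) was 0.17 without that library. AGBL3, at 4.68 ± 1.14 CPM in C4-2B against 4.49 ± 0.838 CPM in RC4-2B, differed by -0.06 (-0.63 to 0.50).

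The vasohibins, which remove the terminal tyrosine, were represented mostly by VASH2. VASH2 had 25.2, 25.5 and 30.2 CPM in C4-2B against 30.5, 33.5 and 32.4 CPM in RC4-2B. The groups were separated only by the small gap between 30.2 and 30.5 CPM. The log2 fold change was 0.25 (interval -0.04 to 0.55, adjusted p = 0.28) and 0.22 without RC4-2B replicate 2. VASH2 made up 83.9% ± 1.52 of the summed vasohibin FPKM in C4-2B against 87.9% ± 2.58 in RC4-2B. VASH1 differed by -0.23 (-0.79 to 0.32), and SVBP, the small protein that vasohibins need for solubility and activity, by -0.02 (-0.56 to 0.51). Without RC4-2B replicate 2 the values were -0.15 for VASH1 and 0.14 for SVBP.

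SIRT2, an NAD-dependent deacetylase whose substrates include alpha-tubulin, had the largest negative difference of the whole set. It measured 61.7, 51.7 and 53.9 CPM in C4-2B against 36.8, 25.4 and 38.2 CPM in RC4-2B. No RC4-2B value came within the C4-2B range, and replicate 2 was the lowest. The means were 55.7 ± 5.26 and 33.5 ± 7.05 CPM (SD, n = 3), and the fitted log2 fold change was -0.74 (SE 0.17, interval -1.13 to -0.34), which just missed the threshold with all 6 libraries (edgeR adjusted p = 0.071). Without RC4-2B replicate 2 it was -0.57 (interval -0.79 to -0.35) and passed (adjusted p = 0.0021), as it did with DESeq2 on all 6 libraries (-0.75, adjusted p = 0.0055). SIRT2 passed in 5 of 15 alternatives. It did not pass with limma on log2 FPKM (adjusted p = 0.11, 0.12 and 0.20 in 3 settings) or with a replicate block (adjusted p = 0.067). The adjusted p was 0.33, 0.22 and 0.22 when C4-2B replicate 1, 2 or 3 was left out. It was 0.064 and 0.13 without RC4-2B replicate 1 or 3. A correction for transcript GC content gave -0.46 (adjusted p = 0.021). SIRT2 lies on chromosome 19 (38878555 to 38899862), whose 1070 tested genes had a median log2 fold change of -0.24, or -0.03 after that correction. It shares 40 exonic bases with NFKBIB on the opposite strand (log2 fold change -0.41, adjusted p = 0.35), and the strand setting of the counting is not given in the sources used here.

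HDAC6 and ATAT1 did not differ beyond their spread. HDAC6, the main cytoplasmic tubulin deacetylase, had 46.0 ± 0.351 CPM in C4-2B against 38.3 ± 10.8 CPM in RC4-2B, where replicate 2 was lowest at 27.4 CPM, for a difference of -0.26 (interval -0.71 to 0.18) that became -0.07 without replicate 2. ATAT1 had a mean of 16.6 CPM in both lines (SD 1.72 and 2.03) and a log2 fold change of 0.003 (-0.35 to 0.36).

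**Figure D3:**
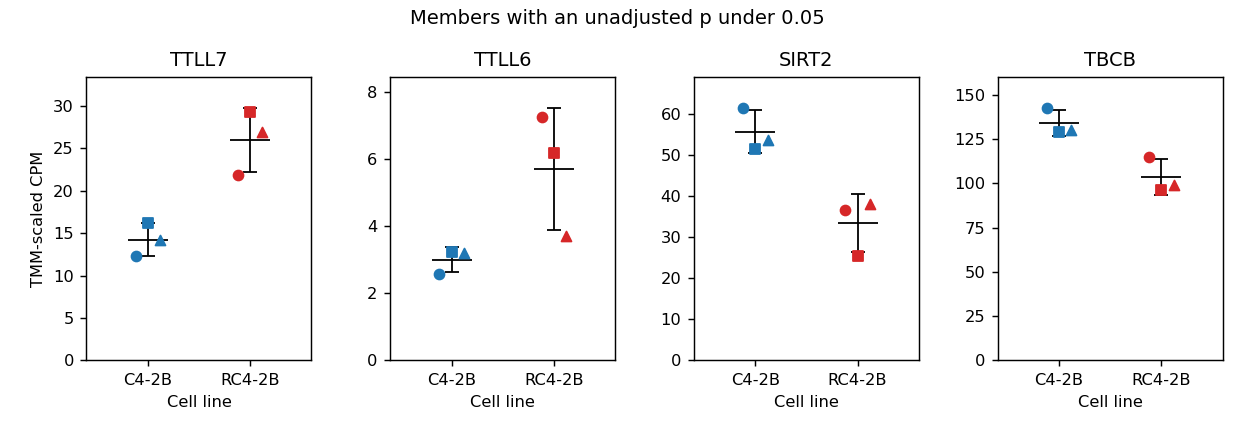
CPM of TTLL7, TTLL6, SIRT2 and TBCB in each library, the 4 members with an unadjusted p under 0.05; points are libraries (circle, square and triangle for replicates 1, 2 and 3), horizontal bars the group means and vertical lines 1 SD (n = 3), on axes that start at 0. In each panel the C4-2B and RC4-2B points do not overlap.

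The levels of enzymes with opposite activities were also set against each other, as log2 ratios of summed FPKM in the same library. ATAT1 over HDAC6 plus SIRT2 was -1.94, -1.64 and -1.50 in C4-2B against -1.16, -0.83 and -1.32 in RC4-2B. All RC4-2B ratios were higher, by 0.59 on average and by 0.45 without replicate 2. The summed deacetylase level was 11.9 ± 0.786 FPKM in C4-2B against 8.17 ± 1.70 FPKM in RC4-2B while ATAT1 was level. Within that sum, SIRT2 went from 8.03 to 4.88 FPKM with separated groups, and HDAC6 from 3.89 to 3.28 FPKM with overlapping groups. The ratio is therefore not separate from the SIRT2 result, and it was not corrected for GC content. Glutamylases over deglutamylases gave 0.0007 ± 0.059 in C4-2B against 0.13 ± 0.05 in RC4-2B, with no overlap. The difference was 0.13, or 0.24 when the ratio was taken from CPM. The glutamylase sum went from 12.4 to 14.6 FPKM. It includes TTLL7, the called gene, which went from 1.21 FPKM in C4-2B to 2.25 FPKM in RC4-2B. This ratio is therefore not separate from the TTLL7 result, and a ratio without TTLL7 was not tested. Among single genes, 17.0% had all RC4-2B values above those of C4-2B. TTL over the vasohibins was -0.02 ± 0.15 and -0.16 ± 0.28, and overlapped. The ratios are sums of transcript levels and not measurements of enzyme activity or of the marks.

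The folding cofactors held no call with all 6 libraries. Their 8 rows were all tested, 3 with positive and 5 with negative differences and a median log2 fold change of -0.30, or -0.12 without RC4-2B replicate 2. TBCB, which binds alpha-tubulin and works with TBCE, came closest to the threshold. It had 143, 129 and 130 CPM in C4-2B against 115, 96.1 and 99.4 CPM in RC4-2B. All RC4-2B values were below the C4-2B range. The means of 134 ± 7.57 and 103 ± 10.1 CPM gave a log2 fold change of -0.37 (SE 0.12, interval -0.64 to -0.11, adjusted p = 0.13). Without RC4-2B replicate 2 it was -0.32 and passed (adjusted p = 0.030), and with the GC correction on all libraries it was -0.14 (adjusted p = 0.45). With that correction and without replicate 2 it was -0.26 and passed (adjusted p = 0.037). TBCB is also on chromosome 19 and shares 217 exonic bases with POLR2I (log2 fold change -0.58, adjusted p = 0.20).

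TBCA, which captures beta-tubulin, was the most abundant cofactor, with 211, 187 and 174 CPM in C4-2B against 185, 120 and 173 CPM in RC4-2B. The groups overlapped, with replicate 2 lowest, and the log2 fold change of -0.26 (interval -0.64 to 0.13) was -0.09 without it. TBCC, which triggers GTP hydrolysis by tubulin in the final complex, differed by -0.36 (-0.74 to 0.02) with separated groups, and by -0.21 without that library. ARL2, the GTPase partner of TBCD, was lowest in RC4-2B replicate 2 at 19.7 CPM, against 39.3 and 33.5 CPM in the others, and its difference of -0.39 (-0.92 to 0.13) became -0.15. TBCD, the beta-tubulin cofactor at the core of the assembly complex, differed by 0.09 (-0.16 to 0.35). Without RC4-2B replicate 2, TBCD differed by 0.18 (0.01 to 0.34, adjusted p = 0.15). Its share of the summed FPKM of TBCA to TBCE was 10.7% in C4-2B against 13.6% in RC4-2B. TBCEL, a TBCE-like protein that destabilises tubulin, had separated groups (24.2 to 28.4 and 29.3 to 33.9 CPM) and a difference of 0.24 (-0.05 to 0.54).

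The TBCE rows had differences of opposite sign. ENSG00000284770 differed by 0.39 (interval -0.12 to 0.90) and ENSG00000285053 by -0.35 (-0.77 to 0.07). Without RC4-2B replicate 2 the values were 0.12 (-0.19 to 0.42) and -0.44 (-0.80 to -0.08, adjusted p = 0.10). In GENCODE 44 these gene models share 2232 exonic bases, so reads could be divided between them or left out of both. ENSG00000284770 also shares 3026 exonic bases with B3GALNT2 (up to 543 counts) on the opposite strand. ENSG00000285053 shares 1422 with GGPS1 (up to 480 counts) on the same strand. Summing the TBCE rows does not remove these other overlaps. In all, 10 of the 32 rows share exonic bases with another gene of at least 10 counts, and TTLL7 is not among them. Summed, TBCE had 23.5 ± 1.34 CPM in C4-2B against 24.9 ± 6.16 CPM in RC4-2B, and the log2 fold change was 0.08 (SE 0.19, adjusted p = 0.80).

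**Figure D4:**
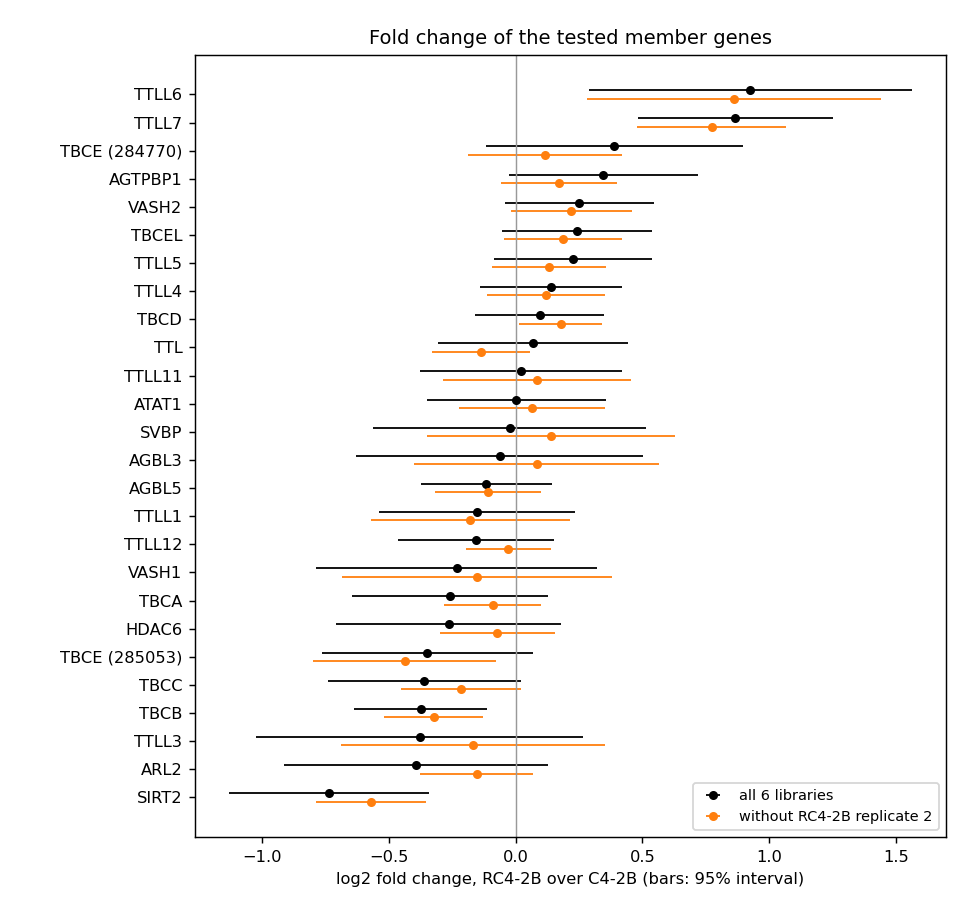
Log2 fold change (RC4-2B relative to C4-2B) with its 95% interval for the 26 tested rows, with all 6 libraries and without RC4-2B replicate 2. With all libraries the intervals of TTLL7, TTLL6, SIRT2 and TBCB leave out 0, and most cofactor values lie closer to 0 without replicate 2.

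Within the set, RC4-2B replicate 2 differed from the mean of the other RC4-2B libraries by -0.86 (ARL2) to 0.69 (TBCE ENSG00000284770) on the log2 CPM scale. Across the 26 rows this difference had a Spearman rho of -0.535 and a Pearson r of -0.497 with transcript GC content, which ran from 33.4% to 61.6%. These are descriptions across genes that share the same libraries. TTLL7 (35.7% GC) was 0.27 higher in replicate 2 than in the other RC4-2B libraries and SIRT2 (60.1% GC) was 0.55 lower. These are the directions that GC-poor and GC-rich genes had in that library. AGBL3 and TBCA departed from the pattern, TBCA with the lowest GC content of the set and a value 0.57 lower in replicate 2.

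**Figure D5:**
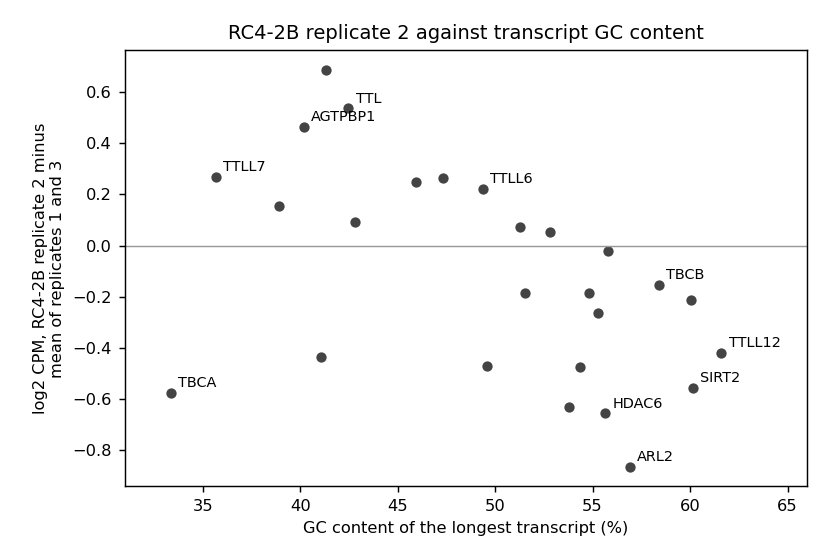
Difference of RC4-2B replicate 2 from the mean of RC4-2B replicates 1 and 3 (log2 CPM) against the GC content of the transcript for the 26 tested rows; each point is 1 row. GC-poor genes tend to lie above 0 and GC-rich genes below it, with TBCA and AGBL3 below 0 among the GC-poor genes.

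Other genes of the same machinery were examined as a list of 34, of which 31 were tested: further modifying enzymes, polyglutamylase subunits, severing enzymes, the chaperonin, prefoldin and relatives or partners of the cofactors. None was called in either direction with all 6 libraries, against 1.08% higher and 0.903% lower over all genes. At an unadjusted p under 0.05, 3 were higher (FIGN, KATNAL1 and LRRC49) and 1 was lower (KATNAL2), against 12.0% higher and 9.42% lower over all genes. The median log2 fold change was 0.08, and -0.05 without RC4-2B replicate 2. Severing enzymes cut microtubules and several prefer glutamylated ones. FIGN, a severing enzyme, had the largest difference, from 0.945 ± 0.197 to 2.29 ± 0.838 CPM (log2 fold change 1.28, SE 0.35, adjusted p = 0.11). Without RC4-2B replicate 2 the FIGN value was 0.94 (adjusted p = 0.10). KATNAL1, a katanin catalytic subunit, differed by 0.50 (adjusted p = 0.13). It was the 1 gene of the list called without RC4-2B replicate 2 (0.34, adjusted p = 0.036). In that fit 6.50% of all genes were called higher and 6.02% lower. KATNAL1 was singled out after its values were seen. The 7 severing enzymes ran from -0.76 to 1.28.

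TTLL1 works in a complex with TPGS1, TPGS2, LRRC49 and other subunits. LRRC49 differed by 0.55 (adjusted p = 0.21) and TPGS1 by -0.58 (adjusted p = 0.29), and neither passed. Without RC4-2B replicate 2 the values were 0.30 for LRRC49 and -0.29 for TPGS1. NICN1, another subunit, was listed at 0 counts in all 6 libraries. The counting rule is not given in the sources used here, so this 0 does not show that the gene was silent. The 8 chaperonin subunits, which fold newly made tubulin before the cofactors take it over, lay between -0.17 (CCT4, adjusted p = 0.35) and 0.15. Among the 6 prefoldin subunits, which hand tubulin to the chaperonin, PFDN6 had the largest difference (-0.66, adjusted p = 0.24). Without RC4-2B replicate 2 the PFDN6 value was -0.36. KIAA0895L, a further detyrosinating enzyme, differed by -0.41 (adjusted p = 0.46) but by -0.07 without RC4-2B replicate 2, and its paralogue KIAA0895 differed by 0.29 (adjusted p = 0.34). ELMOD2, a GTPase-activating protein for ARL2, differed by 0.28 (adjusted p = 0.29), and ARL2BP, which binds ARL2, by -0.92 (adjusted p = 0.37, or -0.40 on the log2 scale without replicate 2). TTLL8 and TTLL13P, further TTLL genes, had 3 counts or fewer in every library.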

How the data were processed

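RNA of C4-2B and RC4-2B cells (3 libraries each) was sequenced. The authors deposited a table of raw gene counts and a table of FPKM values; STAR and GRCh38 are named in the submitters' processing notes, and the counting tool, its strand setting, its treatment of multiply mapped reads and the annotation release are not given in the sources used here. Counts were tested with edgeR's quasi-likelihood test (edgeR 4.0.16, R 4.3.3; TMM scaling, filterByExpr with a minimum count of 10, cell line as the only term), with p-values adjusted by the Benjamini-Hochberg method over all 15054 genes. SE was taken as the log2 fold change over the square root of the F statistic. FPKM served for levels between genes. The test was checked on simulated data in which 200 of 14795 genes were changed 4-fold. It recovered 181 of them and called 16 unchanged genes. The simulation held no GC trend and no outlying library, so it does not show how the test performs for the smaller differences reported here. DESeq2 1.42.0, limma 3.58.1 on log2 FPKM, other scaling, no filter, a GC correction, a replicate block and omission of each library were alternatives. The correction for GC content without RC4-2B replicate 2 and the summed TBCE rows were added after seeing the data. Members and lists were chosen with earlier results of these data known. Values in every library were given for members with an adjusted or unadjusted p under 0.05 and for the most abundant member of each role by FPKM; in each further list the gene of smallest p and that of largest difference were named. Nothing states that replicates were separate cultures beyond the label of biological replicate, so p-values measure the spread between these libraries.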

Additional observations from a re-analysis of the deposited data

How the results depend on the processing

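With all libraries, 162 genes were called higher and 136 lower. The counts were 500 and 402 with DESeq2, 604 and 646 with no filter, 658 and 490 with the GC correction, 1042 and 1017 with that correction and without RC4-2B replicate 2, 46 and 58 with limma on log2(FPKM + 1), 39 and 47 with a pseudocount of 0.1, and 13 and 23 with limma and no filter. Leaving out 1 library gave 13 to 1000 higher and 31 to 925 lower. Members called higher numbered 2 with no filter and with the GC correction without RC4-2B replicate 2, 0 with the 3 limma fits, and 0 to 1 over omissions; members called lower numbered 1 with DESeq2, no filter or the GC correction, 2 with the GC correction without replicate 2, and 0 to 2 over omissions. Of the further genes, no filter called 1 higher and 1 lower, and omissions called 0 to 1 higher. The glutamylase to deglutamylase ratio differed by 0.24 with CPM. Over the member rows and alternatives, 344 values kept direction and side of the threshold. Another 9 passed it only under the alternative, 8 lost it and 21 changed sign. All 21 were small under the alternative. TTL turned to -0.082 with the GC correction and -0.19 with it and without RC4-2B replicate 2 (-0.14 to 0.17 over omissions). TTLL12 turned to 0.19 and 0.087 under the same settings, AGBL5 to 0.025 and VASH1 to 0.054 with the GC correction, and AGBL3 to 0.023 and SVBP to 0.12 with it and without replicate 2. Over omissions, TTLL11 ranged from -0.094 to 0.085, AGBL3 from -0.17 to 0.16, SVBP from -0.16 to 0.14 and ATAT1 from -0.10 to 0.082; ATAT1 was -0.0068 with DESeq2, -0.0069 with DESeq2's scaling and -0.0012 with no filter. The sum of the TBCE rows gave 0.083, which was counted as a change of sign for TBCE ENSG00000285053. That row by itself was -0.35 in the main fit. Where a count or call changed, the cause was not tested. Depth limited the genes at a few counts.

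Libraries share replicate numbers, which are not stated to mark a shared batch. The deviations of same-numbered libraries from their group means had correlations of 0.318, 0.178 and -0.0691. Libraries with different numbers were not compared in this way, so whether the numbers pair the libraries was not tested. With a replicate block, 55 genes were called higher and 74 lower, 0 members were called in either direction, and TTLL7 had an adjusted p of 0.052.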
